A study of Mus musculus with 10 samples.

Results

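Skeletal muscle holds fibro-adipogenic progenitors (FAPs) and tendon cells beside its fibers and stem cells, and 10 genes that mark these connective tissue cells were followed in regenerating muscle with and without miR-501. The genes are *Pdgfra*, *Ly6a*, *Cd34*, *Dpp4*, *Pi16* and *Osr1* for FAPs and *Scx*, *Mkx*, *Tnmd* and *Comp* for tendon. They were chosen by symbol as known markers, and each matched 1 Ensembl gene, so that all 10 were found among the 25700 genes counted. The tibialis anterior (TA) muscle was taken from 5 Pax7Cre and 5 miR-501KO mice, all C57BL/6 males aged 12 weeks, 6 days after an intramuscular injection of cardiotoxin, a snake toxin that destroys fibers and starts regeneration. Both groups carried Cre recombinase under control of the *Pax7* gene. The miR-501KO mice (Pax7Cre miR-501fl/Y, 501KO, labelled miR-501 -/-) also carried a floxed X-linked miR-501, and the Pax7Cre mice, labelled wild type, were their littermate controls. This Cre is not inducible and acts in the myogenic lineage, so FAPs and tendon cells were not the cells targeted, and the RNA came from the whole muscle.

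FAPs are mesenchymal cells that lie between the fibers, expand after injury, lay down matrix and support the muscle stem cells, and that can also turn into fibroblasts or adipocytes. They are recognised by the receptor PDGFRα and by Sca-1, the product of *Ly6a*, and a subset near vessels and fascia carries *Dpp4* and *Pi16*. Tendon cells arise from progenitors that express the transcription factor scleraxis (*Scx*), mature with the help of mohawk (*Mkx*), and make tenomodulin (*Tnmd*) and a collagen-rich matrix with COMP. The TA ends in a long distal tendon, and the amount of tendon left on a muscle depends on the dissection.

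The miRNA that was deleted is shown first, because the complement of its seed was searched in the 10 genes. A mature miRNA pairs with mRNAs mainly through bases 2 to 8, its seed, which stands in capitals below. The sequences are RefSeq's for GRCm38.p6, and all 3 lie on the minus strand of chromosome X. miR-501-3p lies at chrX:7241270-7241291 and miR-501-5p at chrX:7241307-7241328, both in the deleted precursor. miR-500-3p, at chrX:7237695-7237716, is a neighbour with the same seed as miR-501-3p and stems from another precursor.
miR-501-3p: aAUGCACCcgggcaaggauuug
miR-500-3p: aAUGCACCugggcaaggguuca
miR-501-5p: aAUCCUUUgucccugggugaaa

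The complement of the miR-501-3p seed, GGTGCAT, was searched in the annotated 3′ untranslated regions of the 10 genes on the transcript strand. Of the 10 genes, 1 held it, and 9 did not. Among all tested genes with an annotated 3′ untranslated region, 1052 of 13981 (7.52%) held the same letters. The gene was *Pi16*, and its single match is shown with the bases around it, the seed complement in capitals.
Pi16: gtgtgggtggggGGTGCATgcag

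The match is a description of letters and was not tested as a site. The miR-501-5p seed, shorter matches and sites outside the 3′ untranslated regions were not searched. miR-501 itself was not measured in these mRNA libraries, and *Mir501* is not among the genes counted, so the deletion was not checked here.

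Each mouse had between 18609222 and 24753258 counted reads. Within a genotype the libraries differed by more than counting noise gives (the lowest chi-square of any pair was 9.51 per degree of freedom), so none was a copy of another. The summed levels of the markers of other cell types overlapped between the groups. The summed normalized counts (CPM, counts scaled to a common library size with TMM factors) of 6 endothelial markers were between 607 and 746 in Pax7Cre and between 605 and 763 in miR-501KO mice. Those of 5 fibroblast markers, which include *Pdgfra*, were between 17210 and 25270 and between 19780 and 24150. Of 57 markers in 11 lists, 0 were at 0 in every mouse, and *Matn1*, *Bglap* and *Ibsp* had a lowest count of 0. Pax7Cre mice 2 and 4 stood apart for fibers, with sums over 8 mature fiber markers of 63560 and 23360 CPM, beside 36130 to 40940 in the other Pax7Cre mice and 38120 to 48390 in miR-501KO mice. They also had the highest and the lowest share of mitochondrial counts, 14.0% and 6.59%.

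The genotype comparison asked which genes change in the regenerating muscle when miR-501 is missing from myogenic cells. None of the 10 genes changed at an adjusted p under 0.05 (edgeR's quasi-likelihood test, Benjamini-Hochberg adjustment over 14410 genes). That holds for all genes, of which 0, a share of 0%, passed in edgeR and 0 passed in DESeq2. At an unadjusted p under 0.05, 0 of the 10 were higher, beside 0.382% of all genes tested, and 0 of the 10 were lower, beside 0.666%. DESeq2 gave 52 higher and 98 lower genes over the whole table at that threshold, beside edgeR's 55 and 96. The CPM of the genotypes overlapped for each of the 10 genes, where 0.139% of the genes tested had genotypes that did not overlap. Of the 10 log2 fold changes 2 were above 0 and 8 below, with a median of −0.044, beside a median of −0.0042 over all genes, of which 47.9% were above 0. All 10 passed the filter on low counts.

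**Figure D1:**
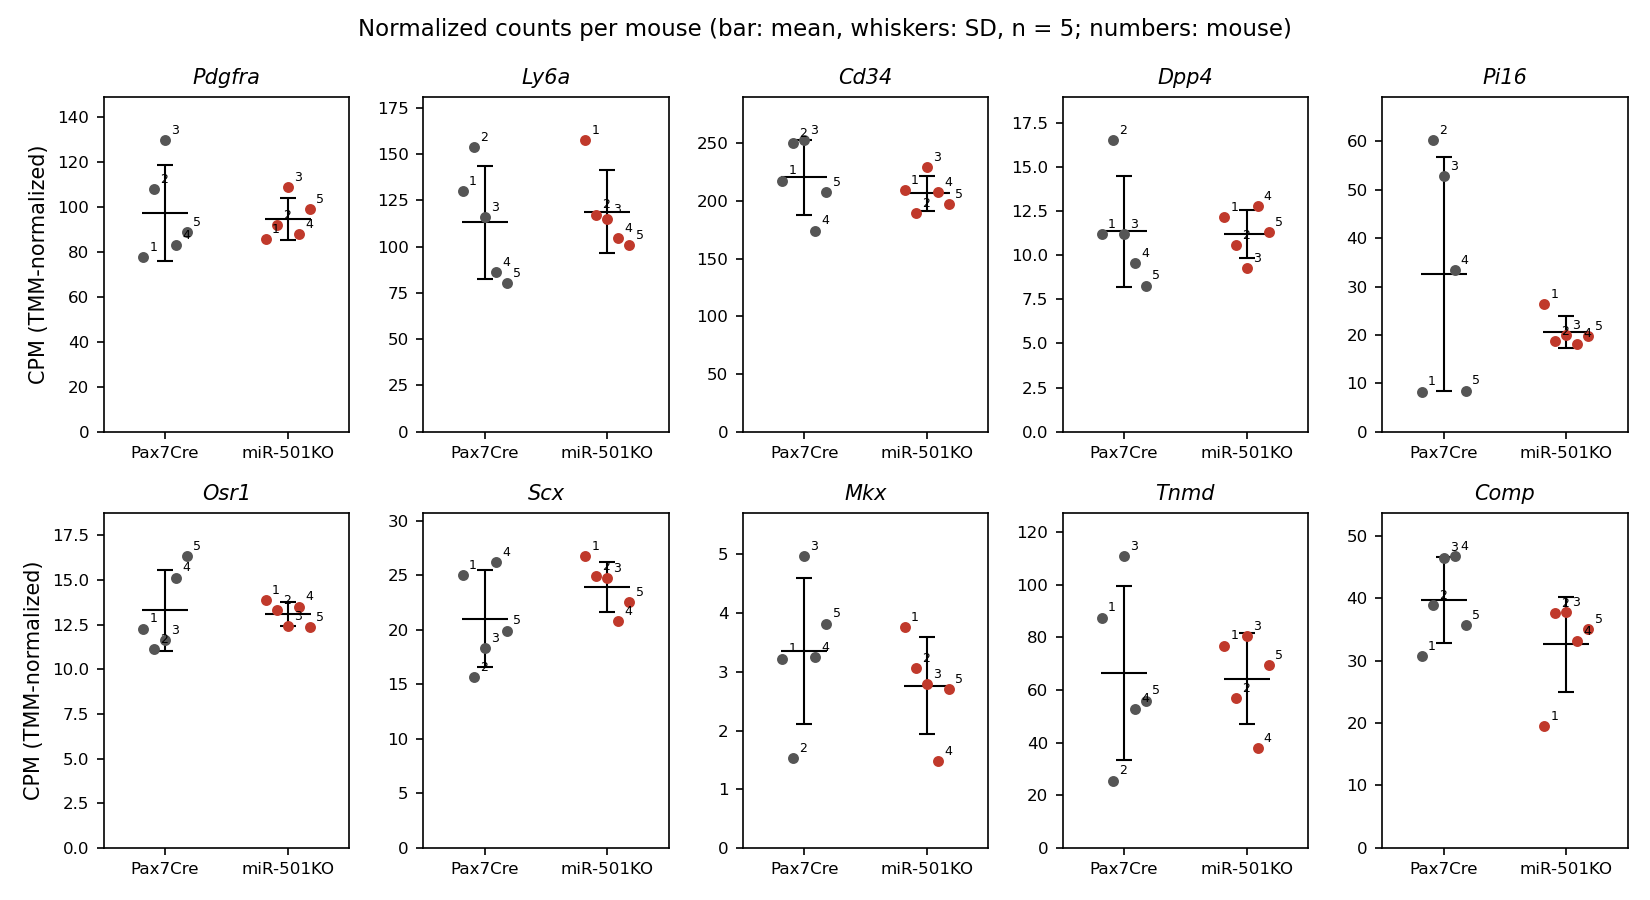
Normalized counts (CPM, vertical axis, starting at 0) of the 10 genes in each mouse, for 5 Pax7Cre mice (grey points) and 5 miR-501KO mice (red points), with the mean and SD in black. The groups overlap in every panel, and the Pax7Cre points of *Pi16* fall far apart, from 8.29 to 60.3.

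*Pdgfra* encodes the receptor tyrosine kinase for PDGF that defines FAPs. It was at 77.6, 107.9, 129.7, 82.9 and 88.7 CPM in Pax7Cre mice 1 to 5 and at 85.8, 91.8, 108.7, 87.8 and 98.95 CPM in miR-501KO mice 1 to 5. Every miR-501KO value lay inside the Pax7Cre range, whose highest value was that of mouse 3. The log2 fold change was −0.041 with a standard error of 0.132 (adjusted p = 1 from edgeR, exact two-sided permutation p = 0.818). Its 95% confidence interval, −0.33 to 0.25, covers levels between 0.797 and 1.19 times that of Pax7Cre mice, and without Pax7Cre mouse 3 the log2 value turned to 0.086. Of the annotated genes that overlap its exons, 1 on the other strand is also counted, and it had at most 2 reads per mouse.

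*Cd34* and *Ly6a* encode surface proteins that FAPs share with endothelial cells, and CD34 is also found on muscle stem cells. In bulk muscle, fewer cells of a type cannot be told apart from less RNA per cell. *Cd34* had 217.6, 250.2, 252.5, 174.2 and 207.5 CPM in Pax7Cre and 209.4, 189.5, 229.5, 207.7 and 197.2 CPM in miR-501KO mice. It was the most even of the 10 genes in Pax7Cre mice, with a coefficient of variation (CV, SD over mean) of 14.7% there and 7.31% in miR-501KO mice. For *Cd34* the fold change on the log2 scale was −0.093 (standard error 0.107, 95% interval −0.32 to 0.14, exact permutation p = 0.421), between −0.17 without Pax7Cre mouse 4 and −0.038 without Pax7Cre mouse 3.

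*Ly6a* was at 129.9, 153.8, 115.9, 86.1 and 80.3 CPM in Pax7Cre mice. In miR-501KO mice it was at 157.5 CPM in mouse 1 and between 100.9 and 117.3 CPM in the other 4. The highest *Ly6a* values were those of miR-501KO mouse 1 and Pax7Cre mouse 2, and Pax7Cre mice 4 and 5 were the lowest. The log2 fold change was 0.072 (standard error 0.177, 95% interval −0.31 to 0.46, exact permutation p = 0.714), and it was −0.050 without miR-501KO mouse 1 and 0.21 without Pax7Cre mouse 2. *Ly6a* belongs to a family of similar genes, and how the authors counted reads that match several of them is not given in the sources used here.

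*Dpp4* encodes a cell surface peptidase and *Pi16* the secreted peptidase inhibitor 16, and both mark the same subset of muscle fibroblasts. *Dpp4* was at 11.2, 16.5, 11.2, 9.55 and 8.28 CPM in Pax7Cre mice and between 9.29 and 12.8 CPM in miR-501KO mice, on 169 to 313 reads per mouse. Pax7Cre mouse 2 was the highest of the 10 mice. The log2 fold change of *Dpp4* was −0.014 (standard error 0.164, 95% interval −0.37 to 0.34, exact permutation p = 0.952), and without Pax7Cre mouse 2 it was 0.16.

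*Pi16* had the log2 fold change farthest from 0 of the 10 genes and, in Pax7Cre mice, the largest CV. It was at 8.29, 60.3, 52.8, 33.4 and 8.47 CPM in Pax7Cre mice 1 to 5 and at 26.4, 18.7, 19.99, 18.2 and 19.8 CPM in miR-501KO mice 1 to 5. Pax7Cre mice 2, 3 and 4 thus lay above all miR-501KO mice, and Pax7Cre mice 1 and 5 lay below all of them. The means were 32.6 ± 24.2 and 20.6 ± 3.31 CPM (SD, n = 5 each), and the log2 fold change was −0.66 with a standard error of 0.465 (unadjusted p = 0.182 and adjusted p = 1 from edgeR, exact permutation p = 0.310). The 95% interval of −1.66 to 0.35 allows a level between 0.316 and 1.28 times that of Pax7Cre mice.

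The highest Pax7Cre value of *Pi16* was 7.27 times the lowest, on counts of 173 to 1142 reads, and the CV was 74.2%, beside a median of 14.9% over all genes tested. Only 0.673% of the genes tested had a larger CV in Pax7Cre mice. In miR-501KO mice the CV of *Pi16* was 16.05%, and 22.3% of genes had a larger one. The difference between the genotypes depended on single Pax7Cre mice, with a log2 fold change of −0.90 without mouse 1 (unadjusted p = 0.0427 from edgeR), −0.90 without mouse 5 (unadjusted p = 0.0432), −0.41 without mouse 3 and −0.32 without mouse 2. The highest mouse for *Pi16*, Pax7Cre mouse 2, was also the highest for *Dpp4* and for the mature fiber markers, whereas Pax7Cre mouse 1, the lowest for *Pi16*, had 11.2 CPM of *Dpp4* and 37900 CPM of fiber markers. The part of fiber content in this spread was not tested.

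*Osr1* encodes a zinc finger transcription factor that FAPs express after injury. It was at 12.3, 11.1, 11.6, 15.1 and 16.3 CPM in Pax7Cre and at 13.8, 13.3, 12.4, 13.5 and 12.4 CPM in miR-501KO mice. All 5 miR-501KO values fell within the Pax7Cre range, and with a CV of 5.09% they were the most even set of values of any of the 10 genes. The log2 fold change was −0.024 (standard error 0.112, 95% interval −0.27 to 0.22, exact permutation p = 0.865), and it turned to 0.059 without Pax7Cre mouse 5 and to 0.027 without Pax7Cre mouse 4.

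**Figure D2:**
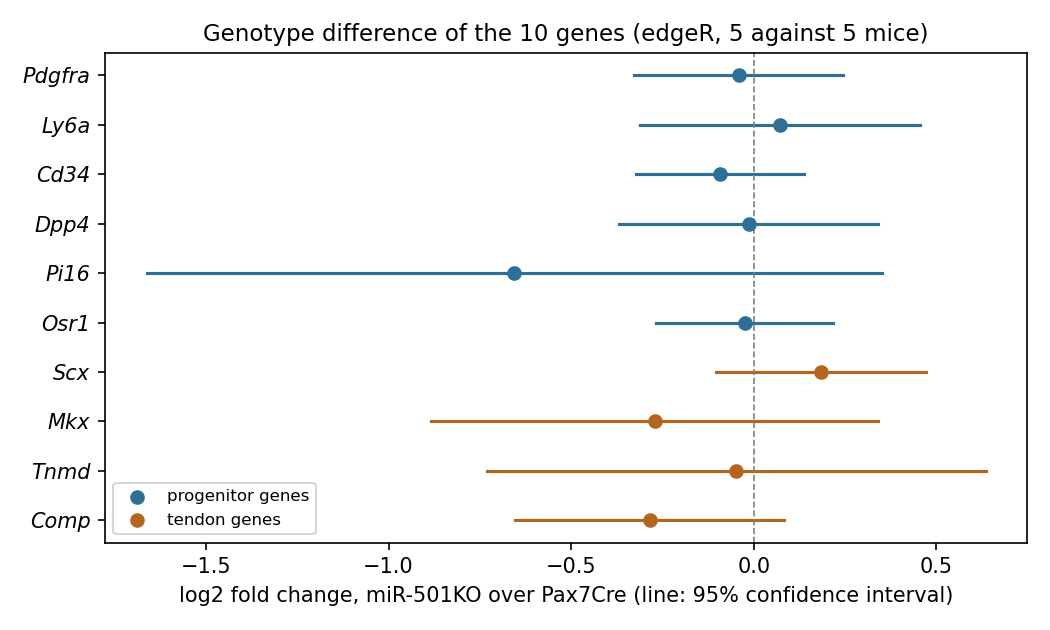
Log2 fold change of miR-501KO over Pax7Cre mice (horizontal axis) for the 10 genes with its 95% confidence interval from edgeR, FAP genes in blue and tendon genes in brown. Every interval includes 0, and the widest, that of *Pi16*, runs from −1.66 to 0.35.

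Of the tendon genes, *Scx* encodes the basic helix-loop-helix factor of tendon progenitors. It was at 25.04, 15.7, 18.3, 26.2 and 19.9 CPM in Pax7Cre and at 26.7, 24.9, 24.7, 20.8 and 22.6 CPM in miR-501KO mice. Pax7Cre mice 2, 3 and 5 lay below all miR-501KO mice, and Pax7Cre mice 1 and 4 lay among them. *Scx* had the largest log2 fold change above 0 of the 10 genes, 0.19, with a standard error of 0.133 and a 95% interval of −0.10 to 0.47 (exact permutation p = 0.230). When Pax7Cre mouse 4 was left out it was 0.28 (unadjusted p = 0.0474, adjusted p = 0.996 from edgeR), and without Pax7Cre mouse 2 it was 0.095.

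*Mkx*, the homeobox gene that follows *Scx* in tendon maturation, was the least abundant of the 10, with 28 to 94 reads per mouse. It was at 3.22, 1.53, 4.97, 3.25 and 3.82 CPM in Pax7Cre and at 3.76, 3.07, 2.79, 1.48 and 2.71 CPM in miR-501KO mice. One mouse of each genotype, Pax7Cre mouse 2 and miR-501KO mouse 4, stood below the others. The log2 fold change was −0.27 (standard error 0.283, 95% interval −0.88 to 0.34, exact permutation p = 0.357). It was −0.45 without Pax7Cre mouse 2, −0.095 without Pax7Cre mouse 3 and −0.12 without miR-501KO mouse 4. So few reads add counting error to the differences among the mice.

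*Tnmd* encodes tenomodulin, a transmembrane glycoprotein abundant in tendon and ligament, and its CV in Pax7Cre mice was second to that of *Pi16*. It was at 87.5, 25.5, 110.7, 52.9 and 55.97 CPM in Pax7Cre mice and at 76.8, 56.9, 80.4, 37.8 and 69.4 CPM in miR-501KO mice. The lowest value in each genotype came from the same mice as for *Mkx*, Pax7Cre mouse 2 and miR-501KO mouse 4. The means of *Tnmd* were nearly equal, 66.5 ± 33.0 and 64.3 ± 17.4 CPM (SD, n = 5 each), and *Tnmd* differed by −0.048 on the log2 scale, with a standard error of 0.316 (exact permutation p = 0.905). Its 95% interval of −0.73 to 0.64 leaves room for a level between 0.602 and 1.55 times that of Pax7Cre mice. The direction turned to 0.21 without Pax7Cre mouse 3, 0.091 without miR-501KO mouse 4 and 0.071 without Pax7Cre mouse 1. The CV was 49.7% and 27.0%, and 3.19% and 8.69% of the genes tested had a larger one.

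*Comp* encodes cartilage oligomeric matrix protein, a glycoprotein that organises collagen in tendon and cartilage. It was at 30.8, 38.9, 46.5, 46.7 and 35.8 CPM in Pax7Cre and at 19.5, 37.6, 37.7, 33.2 and 35.0 CPM in miR-501KO mice. The miR-501KO mouse 1 lay below all other mice, and the remaining 4 lay inside the Pax7Cre range. *Comp* had the smallest p of the 10 genes, and differed by −0.29 on the log2 scale with a standard error of 0.170 (unadjusted p = 0.117 and adjusted p = 1 from edgeR, exact permutation p = 0.183) and a 95% interval of −0.65 to 0.082. Without miR-501KO mouse 1 the log2 fold change was −0.15. Of 6 cartilage and bone markers, *Acan* had 39 to 211 reads per mouse, *Col2a1* 4 to 26, *Matn3* 4 to 20 and *Ibsp* 0 to 15, and *Matn1* and *Bglap* had 0 to 3 each. Their summed level was 2.85 to 11.5 CPM in Pax7Cre and 5.83 to 8.04 CPM in miR-501KO mice, and the part of cartilage in *Comp* was not tested.

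Levels of different genes were compared per kilobase of exon (RPKM, CPM divided by the exonic length in kilobases). That length is the union of all annotated exons, 7290 bases for *Cd34* and 1353 bases for *Tnmd*. A shorter expressed transcript would give a higher value, so the order of the genes rests on the annotation. Averaged over the 10 mice, *Ly6a* was at 96.3 RPKM, *Tnmd* at 48.3 and *Cd34* at 29.3. The middle of the order was *Comp* at 12.2, *Scx* at 11.2 and *Pdgfra* at 9.58 RPKM, and *Osr1* followed at 6.38, *Pi16* at 4.19, *Dpp4* at 1.79 and *Mkx* at 0.747. In Pax7Cre mice *Comp* at 13.4 ± 2.33, *Scx* at 10.5 ± 2.23 and *Pdgfra* at 9.71 ± 2.13 RPKM (SD, n = 5 each) were neighbours in this order. There *Comp* was above *Scx* by more than the SD of either, and *Scx* and *Pdgfra* differed by less than theirs. In miR-501KO mice the order of *Comp* and *Scx* was turned, 10.99 ± 2.55 and 11.9 ± 1.14 RPKM, and the means differed by less than either SD. In Pax7Cre mice *Osr1* at 6.43 ± 1.11 and *Pi16* at 5.13 ± 3.81 differed by less than the SD of *Pi16*. In both genotypes *Tnmd* came after *Ly6a* on this scale, at 49.2 ± 24.4 and 47.5 ± 12.8 RPKM. In Pax7Cre mice it differed from *Cd34*, at 30.2 ± 4.46 RPKM, by less than its own SD, and in Pax7Cre mouse 2 and miR-501KO mouse 4 *Tnmd* was below *Cd34*.

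**Figure D3:**
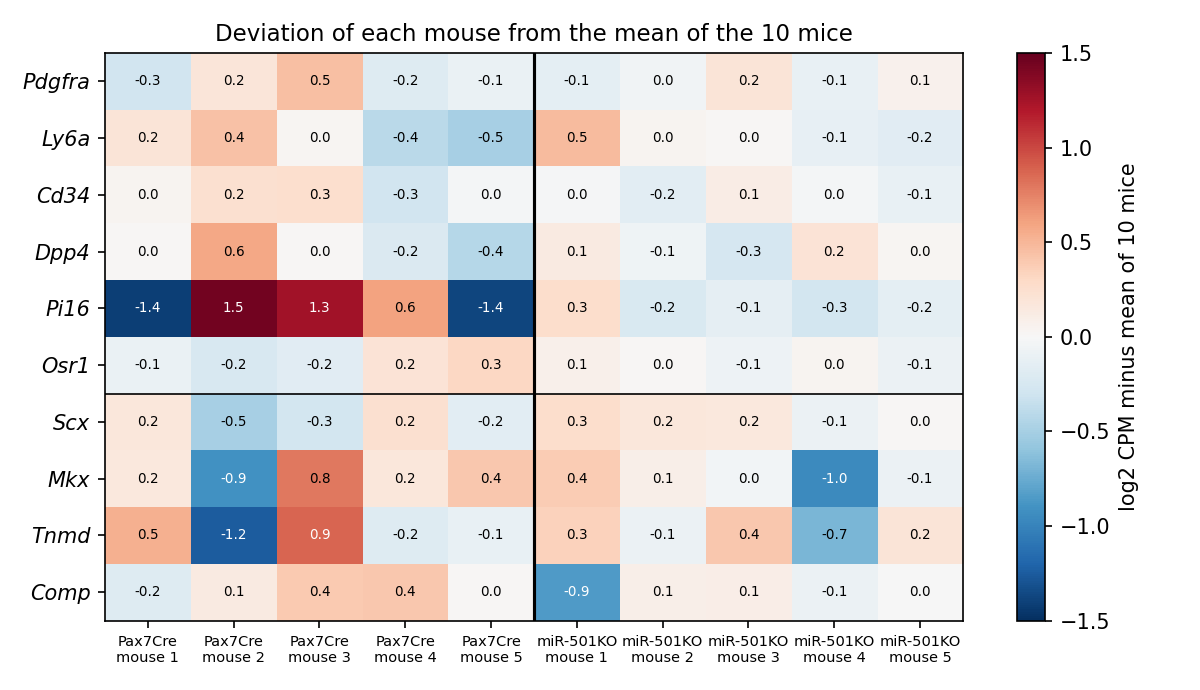
Deviation of each mouse (columns) from the mean log2 CPM of the 10 mice for each gene (rows), with positive values in red and negative values in blue. Pax7Cre mouse 2 and miR-501KO mouse 4 are low for both *Mkx* and *Tnmd*, and the lowest value in the plot is that of *Pi16* in Pax7Cre mouse 1.

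For 9 of the 10 genes the SD was larger in Pax7Cre than in miR-501KO mice, and *Comp* was the exception. The same was true of 79.5% of all genes tested, so the 10 genes did not stand apart in this.

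How the genes varied together was examined over the 10 mice with 45 pairs. No pair had an adjusted p under 0.05 for Pearson's r of log2 CPM (permutation test with 100000 resamples, Benjamini-Hochberg over 45 pairs), and 8 pairs had an unadjusted p under 0.05. *Tnmd* and *Mkx* were the closest pair, with r = 0.831 (permutation p = 0.00415, adjusted p = 0.187) and Spearman's rho = 0.527 (permutation p = 0.124, adjusted p = 0.536). Within Pax7Cre mice r was 0.899 and within miR-501KO mice 0.847, each over 5 mice. Without the 2 mice farthest from the median of *Tnmd*, Pax7Cre mice 2 and 3, it was 0.604. Pax7Cre mouse 2 and miR-501KO mouse 4 were the lowest of their genotypes for both genes and had the most mature fiber markers of their genotypes, 63560 and 48390 CPM, and the highest shares of mitochondrial counts, 14.0% and 12.7%. The part of fiber content in this was not tested.

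**Figure D4:**
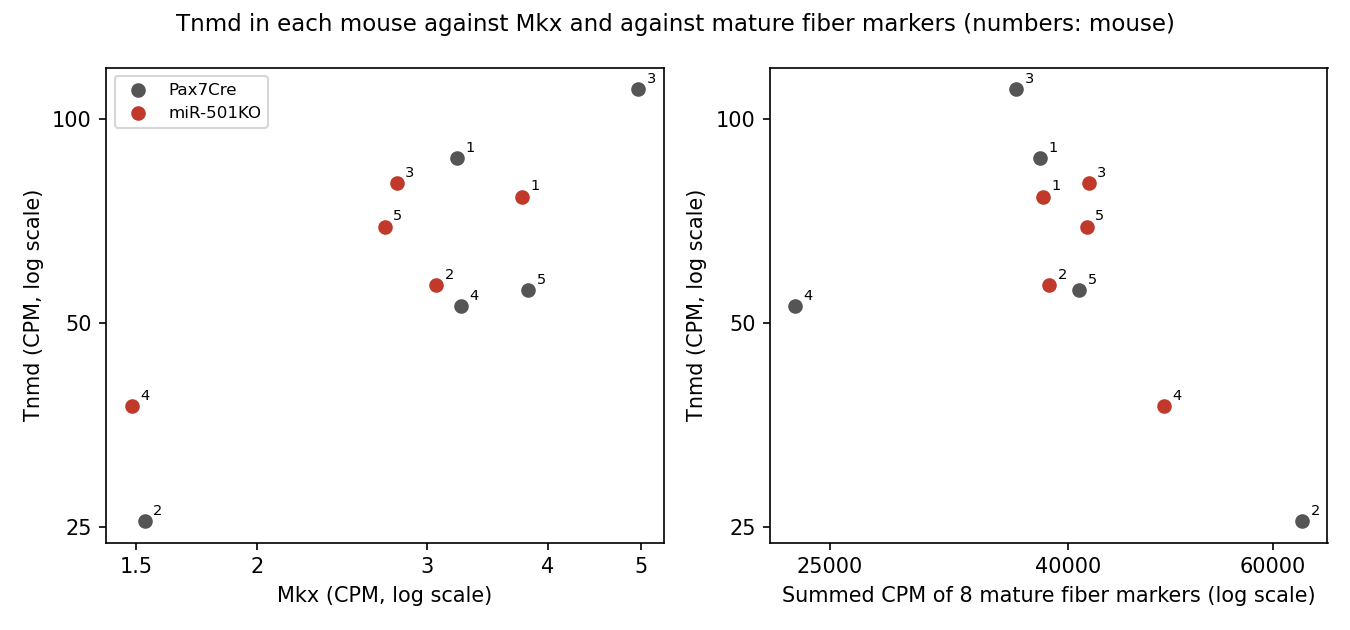
*Tnmd* (CPM, log axis) in each of the 10 mice against *Mkx* (left, CPM, log axis) and against the summed CPM of 8 mature fiber markers (right, log axis), Pax7Cre in grey and miR-501KO in red. The mice with 25.5 and 37.8 CPM of *Tnmd*, Pax7Cre mouse 2 and miR-501KO mouse 4, lie at the low end of *Mkx* and at the high end of the fiber markers, and Pax7Cre mouse 4 combines the fewest fiber markers with 52.9 CPM of *Tnmd*.

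For *Scx* and *Tnmd* r was 0.466 (permutation p = 0.177, adjusted p = 0.424; rho = 0.248, permutation p = 0.493, adjusted p = 0.773; 0.537 without the 2 mice farthest from the median). For *Comp* and *Tnmd* r was −0.109 (permutation p = 0.750, adjusted p = 0.912; rho = −0.164, permutation p = 0.657, adjusted p = 0.822; −0.359 without 2 mice). Among the FAP genes, *Ly6a* and *Dpp4* had r = 0.732 (permutation p = 0.0153, adjusted p = 0.234; rho = 0.552, permutation p = 0.105, adjusted p = 0.536; 0.664 without 2 mice). Within Pax7Cre mice r of this pair was 0.931 and within miR-501KO mice 0.134, each over 5 mice, and the difference was not tested. *Pi16* and *Dpp4*, which mark the same subset, had r = 0.555 (permutation p = 0.0922, adjusted p = 0.346; rho = 0.345, permutation p = 0.330, adjusted p = 0.742), and −0.124 without the 2 mice farthest from the median of *Dpp4*. *Osr1* and *Cd34* had a negative r of −0.694 (permutation p = 0.0248, adjusted p = 0.234; rho = −0.685, permutation p = 0.0339, adjusted p = 0.536; −0.426 without 2 mice).

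After each genotype's mean was removed, the gene with the pattern most like *Tnmd* over the 10 mice was *Gas2* (r = 0.989), followed by *Tram1* (0.976) and *Tmem273* (0.962). Most like *Scx* were *Tagln* (0.974), *Kcnk13* (0.973) and *Aprt* (0.969). For *Pdgfra* the closest gene reached 0.934, *Hif3a*, and for *Pi16* 0.949, *Phf24*. These are the highest places among 14409 other genes for each, over 10 mice of 2 genotypes with the same injury, and are given as a description.

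Other genes of the same roles were read from the same fit. Of 30 further FAP genes 29 were tested. Among them 0 were higher and 0 lower at an unadjusted p under 0.05. A log2 fold change above 0 was found for 8 and below 0 for 21, beside 47.9% above 0 over all genes tested. The median of the 29 was −0.056, beside −0.0042 over all genes tested. The lowest were *Efemp1*, a fibulin of the extracellular matrix, at −0.39 (19.5 ± 7.13 and 14.9 ± 1.33 CPM, SD, n = 5 each), and *Sema3c*, a secreted guidance factor, at −0.28. The highest were *Hic1*, a transcriptional repressor of quiescent mesenchymal progenitors, at 0.12 and *Mfap5*, a microfibril protein, at 0.090.

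Of 20 further tendon and myotendinous genes 19 were tested, again with 0 higher and 0 lower at an unadjusted p under 0.05. Above 0 were 10 and below 0 were 9 of them, with a median of 0.0046. *Tnc*, which encodes the matrix glycoprotein tenascin-C, had the highest log2 fold change, 0.35 (standard error 0.336), with 646 ± 305 CPM in Pax7Cre and 824 ± 151 CPM in miR-501KO mice (SD, n = 5 each). *Ptx4* was at 0.28. The lowest were *Col11a2*, a fibrillar collagen chain, at −0.34 and *Chad*, the cartilage and tendon leucine-rich protein chondroadherin, at −0.33 (standard error 0.627), which ranged from 0.370 to 6.75 CPM in Pax7Cre mice.

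The PDGF ligands, which signal through PDGFRα and PDGFRβ, and the receptor gene *Pdgfrb* gave 5 genes, all tested, with 0 higher and 0 lower at an unadjusted p under 0.05 and a median of 0.039. *Pdgfa* was highest at 0.14 (standard error 0.0712, 29.9 ± 2.10 and 33.0 ± 1.71 CPM, SD, n = 5 each). *Pdgfd* was lowest at −0.26 (standard error 0.128, 9.32 ± 1.12 and 7.74 ± 1.24 CPM, SD, n = 5 each). The other genes were *Pdgfb* at −0.025, *Pdgfrb* at 0.039, which was also counted among the further FAP genes, and *Pdgfc* at 0.041.

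**Figure D5:**
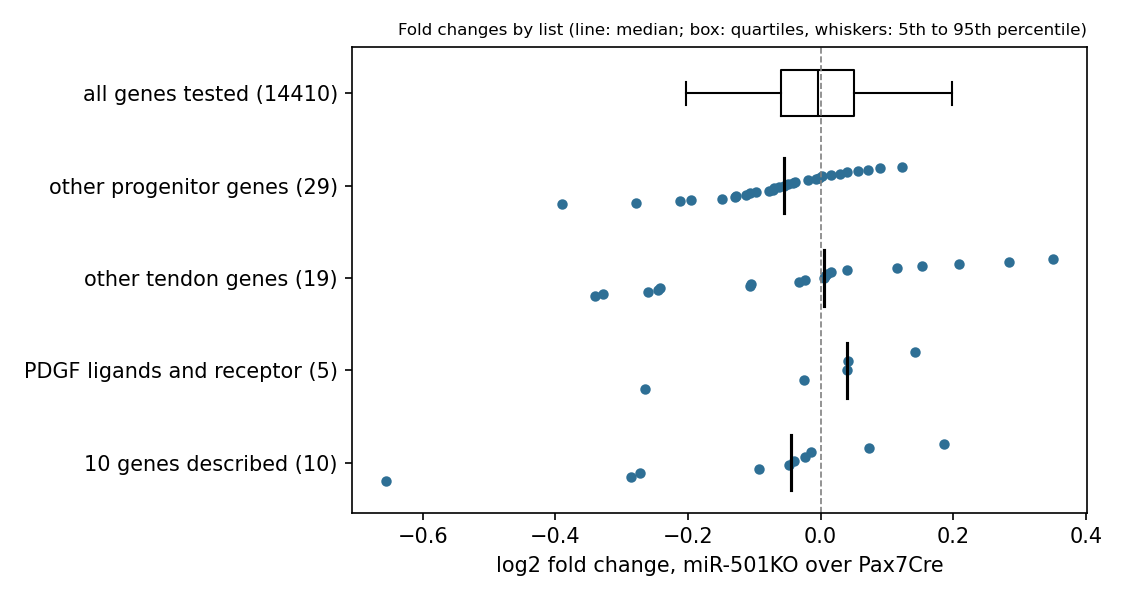
Log2 fold change of miR-501KO over Pax7Cre mice (horizontal axis) for the 10 genes, for 3 lists of other genes of the same roles (1 point per gene, black line at the median) and for all 14410 genes tested (box of quartiles, whiskers from the 5th to the 95th percentile). The medians of the lists lie between −0.056 and 0.039.

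On the genome GRCm38 the 10 genes lie on 9 chromosomes, and *Ly6a* (74994877 to 74998031, minus strand) and *Scx* (76457452 to 76459458, plus strand) share chromosome 15. *Pi16* lies on chromosome 17 from 29317680 to 29330593 on the plus strand, and *Tnmd* on chromosome X from 133850980 to 133865577 on the plus strand. All 10 are annotated as protein-coding, and *Pdgfra* is the 1 gene among them whose exons overlap those of another counted gene.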

How the data were processed

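Counts of TA mRNA from 5 Pax7Cre and 5 miR-501KO mice were used. Libraries were stranded and read as 100 bp single ends. Per the labels, the authors used STAR, featureCounts, R 3.5.1 and build GRCm38.p5, and they deposited raw counts per Ensembl gene without normalization. The strand setting and the handling of reads on several genes are not given in the sources used here. Totals were 18609222 to 24753258 counts per mouse, and the precision depends on these and on the spread among mice.

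Identifiers were matched to GENCODE M21 (GRCm38) for 25664 of 25700 genes. In R 4.3.3, edgeR 4.0.16 filtered genes (filterByExpr, minimum count 10, minimum total 15; 14410 kept), computed TMM factors and ran its quasi-likelihood test on genotype, with Benjamini-Hochberg adjustment over all genes tested. Exact two-sided permutation tests on CPM, with a smallest possible p of 0.00794, and the ranks for Spearman's rho used SciPy 1.17.1. Correlations and their permutation p were computed with NumPy on log2 of CPM plus 0.5. RPKM used the union of annotated exons.

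The 10 genes, the lists and the named genes (the 2 highest and 2 lowest of each list and the genes most alike) were chosen with earlier results of these data known. *Pdgfrb* was named after its values were seen. Alternatives were DESeq2 1.42.0 size factors, its Wald test, other filters, a replicate block and leaving out each mouse. The steps were tested on simulated data. Controls were littermates, but which mice shared a litter is not given in the sources used here.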

Additional observations from a re-analysis of the deposited data

Results flagged for a closer look

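For each of the 10 genes in each genotype, the highest or lowest mouse was called distant when the gap to its nearest neighbour exceeded 0.71 of the 5 mice's range. Such a mouse was found in 3 of 20 groups, and chance gives about 1 in 20. All 3 were miR-501KO mouse 1. It had the highest *Ly6a*, 157.5 CPM, beside 100.9 to 117.3 in the other miR-501KO mice. It also had the highest *Pi16*, 26.4 CPM, beside 18.2 to 19.99, and the lowest *Comp*, 19.5 CPM, beside 33.2 to 37.7. This mouse had the largest library, 24753258 counts, and its mature fiber markers summed to 38120 CPM, beside 38570 to 48390 in the others of its genotype. Its leukocyte markers summed to 163.3 CPM, the highest of the 10 mice, beside 124.7 to 136.4 in the other miR-501KO mice. Its satellite cell markers, at 53.95 CPM, were also the highest of the 10 mice, beside 45.14 to 50.6 in the other miR-501KO mice. Apart from the fibroblast and adipocyte lists below, its sums for the remaining lists lay within the range of the other miR-501KO mice. Its fibroblast and adipocyte sums, 19780 and 222.1 CPM, were the lowest of its genotype, beside 20420 to 24150 and 224.4 to 316.6. The adipocyte sum was mostly *Fabp4*, with 4131 to 6772 reads per mouse, beside 43 to 579 of *Adipoq*. The leukocyte sum was mostly *Ptprc*, with 2321 to 4006 reads per mouse, beside 12 to 70 of *Cd3e*. These sums therefore mostly give the level of a single gene. The part of the library size and of the marker levels in the 3 values was not tested.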

How the results depend on the processing

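No alternative gave a gene with an adjusted p under 0.05, over the 5 alternatives in normalization, filter, test and block and the 10 fits that left out a mouse. Genes with an unadjusted p below 0.05 numbered 55 (higher) and 96 (lower) as reported. The numbers became 153 and 159 without a filter on low counts, 36 higher when every mouse had to have 10 counts, and 87 higher under the replicate block. Leaving out 1 mouse gave between 39 (miR-501KO mouse 1) and 267 (Pax7Cre mouse 2) higher and between 59 (miR-501KO mouse 1) and 242 (Pax7Cre mouse 4) lower genes. The cause was not tested.

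Of the 50 log2 fold changes of the 10 genes under the 5 alternatives, 48 kept their direction, and of the 100 with a mouse left out 88 did. With the replicate block *Dpp4* turned to 0.014 and *Tnmd* to 0.052, *Pi16* moved to −0.29, and *Comp* had −0.30 (unadjusted p = 0.0190, adjusted p = 1 from edgeR). The numbers were not taken as pairs, since the labels tie them to no litter and equally numbered mice correlated between −0.305 and 0.337, with values below 0 for mice 2 and 4. As a hint the other way, 3 of 5 Pax7Cre mice correlated best with their own number, where chance gives 1 of 5. With a mouse left out, *Pdgfra* lay between −0.11 and 0.086, *Ly6a* between −0.050 and 0.21, *Dpp4* between −0.11 and 0.16, *Osr1* between −0.083 and 0.059 and *Tnmd* between −0.26 and 0.21. *Cd34* stayed below 0, between −0.17 without Pax7Cre mouse 4 and −0.038 without Pax7Cre mouse 3. *Pi16* also stayed below 0, between −0.90 and −0.32, as did *Comp*, between −0.36 and −0.15, and *Mkx*, between −0.45 and −0.095, and *Scx* stayed above 0, between 0.095 and 0.28. Without the 2 farthest mice, 0 of 45 pairs had an adjusted p under 0.05. Reads limit *Mkx* most, with 28 to 94 per mouse.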
